A study of Homo sapiens with 27 samples.

Results

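The miR-199, miR-214, miR-143 and miR-145 arms are 7 mature microRNAs (miRNAs) that are best known from connective tissue and smooth muscle: hsa-miR-199a-3p, hsa-miR-199b-3p, hsa-miR-199a-5p, hsa-miR-199b-5p, hsa-miR-214-3p, hsa-miR-143-3p and hsa-miR-145-5p, written below without the species prefix. They were read by name from count tables that list 2276 miRNAs in all. Small RNA was sequenced in 27 libraries in 9 groups of 3. The cells were H1, a line of human embryonic stem cells (hESCs), and K562, a line from a chronic myelogenous leukaemia, both long established. The 5 hESC groups were WT, cells with a USB1 mutation made by genome editing (USB1 mutants), USB1 mutants with a USB1-WT transgene inducible by doxycycline (iUSB1) without and with Dox, and USB1 mutants carrying short hairpins against PAPD5 (shPAPD5). All hESC groups except WT therefore carry the USB1 mutation. The 4 K562 groups were control cells and USB1 knockout (KO) cells, each without and with a hairpin against PARN (shPARN). USB1 and PARN are 3' exonucleases that remove adenosines from RNA ends, and PAPD5 is a poly(A) polymerase that adds them. The KO cells were derived from single-cell clones, and the edited hESCs were picked by hand after sparse seeding. Effects of the mutation and of picking therefore cannot be told apart in comparisons with WT. No label names a group with a non-targeting hairpin. The study grew hESCs either without feeders or on mouse embryonic fibroblasts, and the labels do not say which applied to these libraries. The depth of the hESC libraries was 12258450 to 35734485 miRNA counts and that of the K562 libraries 1530929 to 13183152, KO library 3 being the shallowest.

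A miRNA hairpin is cut into a 5p and a 3p arm, and the arm that is loaded into an Argonaute protein pairs with target mRNAs mainly through its seed, bases 2 to 8. miR-199a and miR-214 come from a shared transcript, DNM3OS, which is active in embryonic mesenchyme, and miR-143 and miR-145 share the host CARMN, which is prominent in smooth muscle. miR-199a-3p is among the miRNAs that the study itself followed. The mature sequences are shown because 2 of the names stand for 1 molecule and because the arms of the clusters have different seeds. They are RefSeq entries on GRCh38.p14, found for 6 of the 7 members, written 5' to 3' with the seed in capitals. miR-199b-5p had no entry and is named only.
miR-199a-3p: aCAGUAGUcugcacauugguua
miR-199b-3p: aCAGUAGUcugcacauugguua
miR-199a-5p: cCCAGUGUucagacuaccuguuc
miR-214-3p: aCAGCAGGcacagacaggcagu
miR-143-3p: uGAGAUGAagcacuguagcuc
miR-145-5p: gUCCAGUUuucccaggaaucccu
miR-145-3p: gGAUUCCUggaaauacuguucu
The last line is the opposite arm of miR-145-5p, which is shown because it passed the test in K562 below. miR-199a-3p and miR-199b-3p were identical over their whole length of 22 bases. Among 2370 mature miRNAs of the table, miR-3129-5p shared their seed, miR-761 and miR-3619-5p shared the seed of miR-214-3p, miR-4770 and miR-6088 shared that of miR-143-3p, and none shared the seed of miR-199a-5p, miR-145-5p or miR-145-3p.

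The hairpins are placed here on GRCh38.p14. MIR143 (chr5:149428918-149429023, plus strand) lies within an exon of the long non-coding RNA CARMN and MIR145 (chr5:149430646-149430733, plus strand) in an intron of it, with 1622 bases between them. MIR214 (chr1:172138798-172138907, minus strand) lies within an exon of DNM3OS and MIR199A2 (chr1:172144535-172144644, minus strand) partly in one, 5627 bases apart, both antisense to an intron of DNM3. MIR199A1 (chr19:10817426-10817496, minus strand) is antisense to an intron of DNM2, and MIR199B (chr9:128244721-128244830, minus strand) is antisense to an intron of DNM1. Mature miR-199a-5p and miR-199a-3p can come from either MIR199A1 or MIR199A2, whereas miR-199b-5p names the MIR199B hairpin alone.

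Counts of the shared 3p product were divided about equally between its names. The miR-199a-3p share of the sum was 44.6 to 53.1% over 27 libraries, and the exact 95% binomial interval held an even split in 24 of them. Pooled, it was 49.8% (49.1 to 50.5, exact interval) of 21623 counts. Intervals here cover counting error only. The values of miR-199a-3p and miR-199b-3p are therefore not independent measurements, and the sum is called miR-199-3p below. The 5p arms of the a and b forms are different molecules, and there the b form dominated. miR-199b-5p made up 92.9 to 98.9% of miR-199 5p counts in hESCs (median 97.2%) and 92.3 to 99.4% in 11 of the 12 K562 libraries, with KO shPARN library 1 apart at 70.8%.

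In WT hESCs the members differed widely in level. Levels are CPM, which are counts brought to 1 library size with TMM, a correction for composition, within each cell line, as mean ± SD of 3 libraries. miR-143-3p, which is abundant in smooth muscle and fibroblasts, was the highest at 231 ± 93.5 CPM, followed by miR-199b-5p at 94.5 ± 30.2, miR-199-3p at 57.2 ± 19.5, miR-145-5p at 16.9 ± 7.87 and miR-199a-5p at 1.95 ± 0.963. miR-214-3p had 2, 2 and 1 counts in the WT libraries and 0 to 7 in the other hESC libraries that list it, and it was not listed with Dox. Its counts in K562 were 0 to 18. Because it was not listed with Dox it did not enter the hESC fits, and in the other fits it did not pass the filter on low counts. Its opposite arm miR-214-5p had 2 to 20 counts in hESCs. For comparison, the hESC cluster miR-302a/b/c/d-3p with miR-367-3p summed to 174050 to 380740 CPM in hESCs. Thus 6 of 7 members entered the tests, with edgeR quasi-likelihood and Benjamini-Hochberg adjustment over all miRNAs tested.

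The comparison of USB1 mutants with WT hESCs asked which arms change when USB1 is impaired before differentiation. Both arms of miR-199 that were abundant fell by about the same amount, while miR-143-3p and miR-145-5p did not pass the test. Of 6 members tested, 3 fell, 0 rose and 3 were not called, against 7.41% of 998 miRNAs called and 4.51% called lower. The median log2 change was -0.73 over the 6 members, which count the 3p product under both names, and 0.04 over all miRNAs.
miR-199b-5p was at 129, 76.7 and 77.5 CPM in WT libraries 1, 2 and 3 and at 33.0, 41.6 and 45.1 CPM in the mutants. Every mutant library lay below every WT library, as for 11.5% of all miRNAs, and WT library 1 was the highest of all. The log2 change was -1.24 (SE 0.23, 95% interval -1.74 to -0.75, edgeR adjusted p = 0.00465).
miR-199-3p was at 79.3, 42.1 and 50.4 CPM in WT and 30.1, 25.0 and 29.5 CPM in the mutants, again without overlap. Fitted as 1 product it fell by 1.02 on the log2 scale (SE 0.25, edgeR adjusted p = 0.0203). By name, the log2 change was -1.08 for miR-199a-3p (SE 0.24, edgeR adjusted p = 0.0111) and -0.97 for miR-199b-3p (SE 0.27, adjusted p = 0.0343). In bulk libraries, fewer cells that carry a miRNA and less of it per cell cannot be told apart. Without WT library 1, miR-199b-5p still passed (log2 change -0.97, edgeR adjusted p = 0.0205), miR-199a-3p did not (-0.79, adjusted p = 0.0549) and neither did miR-199b-3p (-0.67, adjusted p = 0.159). Fitted on these groups alone, 0 members and 0 of 898 miRNAs were called by edgeR (149 at an unadjusted p under 0.05). The edgeR adjusted p was then 0.103 for miR-199b-5p and 0.128 for miR-199a-3p. Such a fit has fewer libraries to estimate the spread, and why the calls were lost was not tested.

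miR-143-3p, miR-145-5p and miR-199a-5p overlapped between WT and mutant. miR-143-3p was at 338, 163 and 193 CPM in WT libraries 1, 2 and 3 and at 192 to 211 CPM in the mutants (log2 change -0.18, 95% interval -1.21 to 0.85, edgeR adjusted p = 0.86). miR-145-5p was at 12.3 to 26.0 CPM in WT and 11.95 to 20.6 CPM in the mutants (log2 change -0.18, interval -0.91 to 0.55). Its opposite arm miR-145-3p was at 12.7 CPM in WT library 1 and at 3.93 to 4.798 CPM in the other 2 WT and the 3 mutant libraries (log2 change -0.69, SE 0.36, edgeR adjusted p = 0.248). Without WT library 1 the changes of miR-143-3p, miR-145-5p and miR-145-3p were 0.18, 0.25 and 0.04. miR-199a-5p, at 11 to 42 counts a library, gave -0.49 with an interval from -1.70 to 0.72, which is too wide to place it with or apart from miR-199b-5p.

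**Figure D1:**
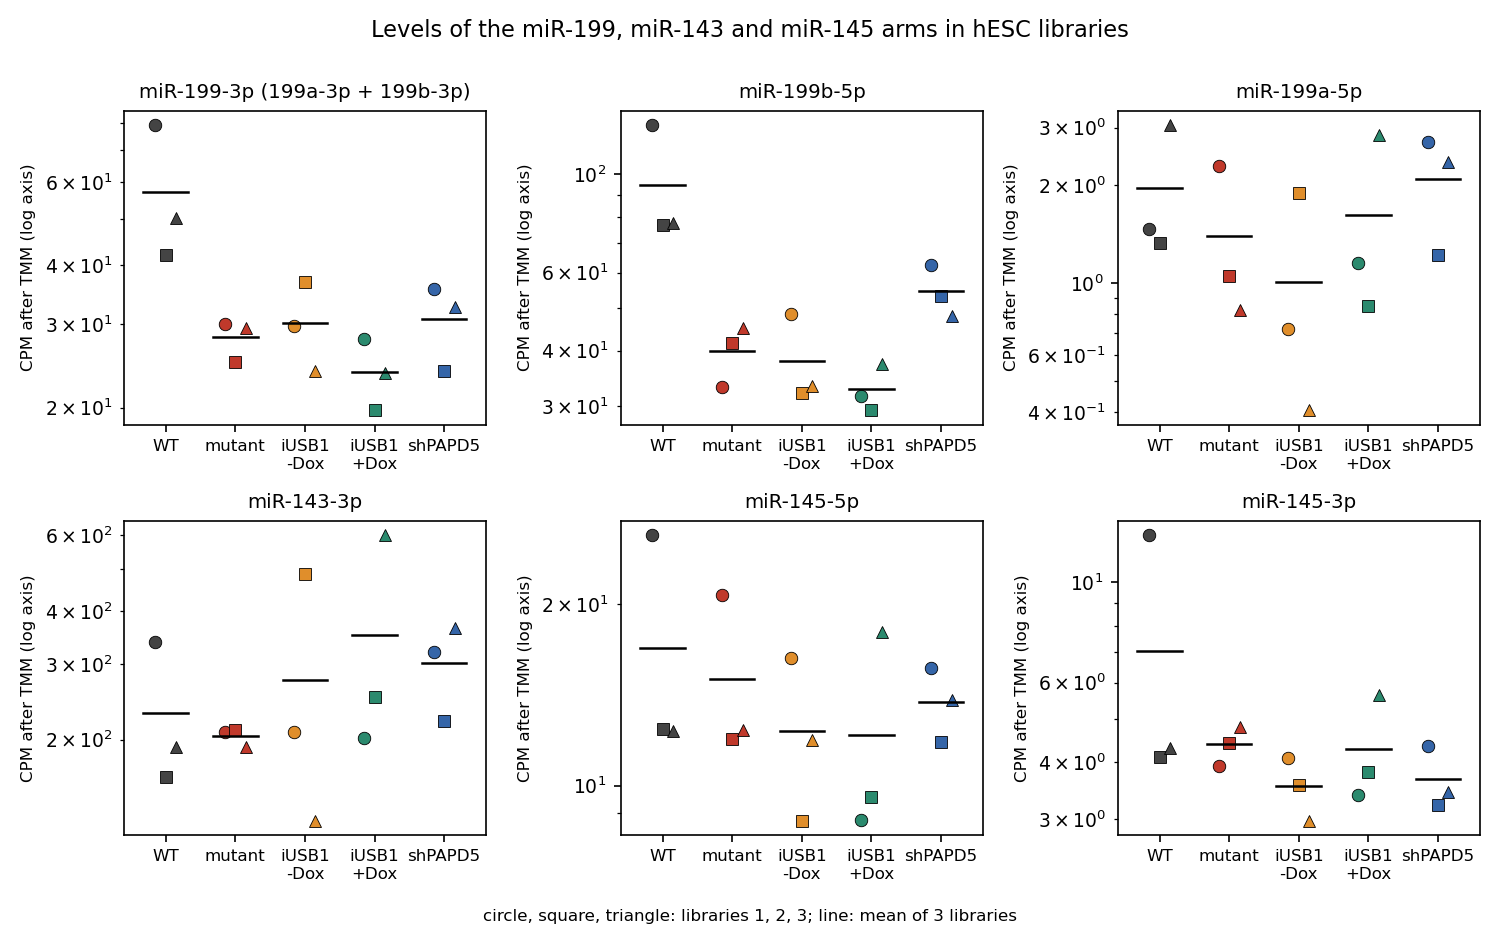
Levels of 6 arms in hESC libraries, in CPM after TMM scaling on log axes, by group; each point is 1 library, with shape for the library number, and lines are means of 3. The WT libraries of miR-199-3p (42.1 to 79.3 CPM) and miR-199b-5p (76.7 to 129 CPM) lie above all libraries with the mutation, and miR-143-3p and miR-145-5p overlap between WT and mutants.

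The ratio of the arms of a hairpin removes library scaling. The miR-199 ratio sums the arms of MIR199A1, MIR199A2 and MIR199B, so it is not the arm use of any 1 of them. The ratio of miR-199 5p to 3p counts was 1.60 to 1.85 in WT and 1.17 to 1.71 in the mutants, a difference in mean log2 ratio of -0.22 (two-sided exact permutation test, p = 0.4, adjusted p = 0.8 over 4 ratios, n = 3 and 3, smallest possible p = 0.1). miR-145-5p exceeded miR-145-3p by 2.04 to 3.0 times in WT and by 2.57 to 5.21 times in the mutants (difference 0.35, exact permutation p = 0.6). miR-143-3p exceeded its 5p arm by 593 to 1761 times in WT and 579 to 1024 times in the mutants (difference -0.22, exact permutation p = 0.8), and that 5p arm was at most 0.543 CPM in WT. For miR-214 the counts in these libraries, 0 to 7 for 3p and 4 to 20 for 5p, gave a difference of 0.77 (exact permutation p = 0.8) that rests on single counts. A change was thus not detected in the 4 ratios, in a design whose smallest possible p lies above the threshold.

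Other groups of miRNAs in the same libraries give the setting of the miR-199 change. Of 9 miRNAs common in fibroblasts other than the members (such as miR-21-5p and miR-29a-3p), 7 were tested, and 0 rose or fell in mutants against WT (median log2 change 0.11). Their summed level was 22936 to 26315 CPM in WT and 22592 to 26997 CPM in the mutants. This list summed to 107750 to 372440 CPM in K562, so it is not particular to fibroblasts. The part of feeder cells or fibroblasts in the miR-199 values was not tested. Of 3 muscle miRNAs, miR-1-3p was at 634 to 969 CPM in WT and 110 to 346 CPM in the mutants, a log2 change of -1.85 (SE 0.34, edgeR adjusted p = 0.00465), and miR-133a-3p and miR-206 were not called. Of 5 epithelial miRNAs of the miR-200 family, 2 fell, miR-200b-3p and miR-429, and the list summed to 7837 to 8342 CPM in WT and 3929 to 4901 CPM in the mutants. Of 5 hESC miRNAs, 4 rose, by 0.57 to 1.07. Of 6 blood miRNAs, 4 were tested and 0 called, as were 2 endothelial arms of miR-126. Whether these changes had a part in the miR-199 result was not tested.

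The iUSB1 groups asked whether restoring USB1 in the mutants moved the same arms. miR-199-3p and miR-199b-5p were low without Dox and low with it. Without Dox against WT, 2 of 6 members fell and 0 rose, against 4.31% of 998 miRNAs called and 3.41% called lower. With Dox against WT, 3 of 6 fell and 0 rose, against 8.22% called and 6.01% called lower. These comparisons and that of the mutants use the same 3 WT libraries, so they are not independent of each other.
miR-199b-5p was at 48.4, 32.1 and 33.2 CPM without Dox and 31.6, 29.3 and 37.3 CPM with Dox, so every library was below the lowest WT library at 76.7 CPM, as for 11.6% of all miRNAs without Dox and 15.4% with Dox. Its log2 change against WT was -1.32 without Dox (SE 0.23, edgeR adjusted p = 0.00325) and -1.53 with Dox (SE 0.23, adjusted p = 0.000863).
miR-199-3p was at 29.8, 37.0 and 23.9 CPM without Dox and 27.9, 19.7 and 23.7 CPM with Dox. As 1 product it fell by 0.92 without Dox (SE 0.25, edgeR adjusted p = 0.0468) and by 1.27 with Dox (SE 0.25, adjusted p = 0.00443). Of the names, miR-199b-3p was not called without Dox (log2 change -0.83, edgeR adjusted p = 0.1). Without WT library 1, the count without Dox was 1 member, miR-199b-5p, and it was also 1 without iUSB1 library 1 or library 3.
Other lists moved against WT in these groups as well. Of the muscle miRNAs, miR-1-3p fell by 1.56 without Dox and by 1.97 with Dox, and miR-133a-3p fell by 1.46 with Dox. Of the epithelial miRNAs, miR-200b-3p fell by 0.80 and 0.97 and miR-429 by 0.61 and 0.65, without and with Dox, and miR-486-5p of the blood list fell by 1.24 and 1.08. The muscle list summed to 642 to 982 CPM in WT, 196 to 355 without Dox and 173 to 243 with Dox, and the epithelial list to 7837 to 8342, 5538 to 6076 and 4735 to 5642 CPM. Of 7 fibroblast, 5 hESC and 2 endothelial miRNAs tested, 0 were called in either comparison. Their part in the miR-199 result was not tested.

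With Dox against without, 0 of 6 members and 0% of 998 miRNAs were called by edgeR, with 0 members and 45 miRNAs at an unadjusted p under 0.05, and DESeq2 called 1 miRNA and 0 members. The difference of miR-199b-5p was -0.21 (95% interval -0.70 to 0.27) and that of miR-199a-3p was -0.27 (-0.77 to 0.24). For miR-199b-5p the upper bound of 0.27 lies below the 1.24 by which it fell in the mutants. miR-143-3p varied widely among these libraries, from 129 to 488 CPM without Dox and from 202 to 601 CPM with it, with no call. Without Dox against the mutants, 0 of 6 members and 0% of miRNAs were called, with 0 members and 89 miRNAs at an unadjusted p under 0.05 and 0 called by DESeq2.

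The shPAPD5 group asked whether lowering PAPD5 raised the arms that are low in the mutants. miR-199b-5p was at 62.5, 53.0 and 47.9 CPM, above all mutant libraries and below all WT libraries, and miR-199-3p was at 35.7, 24.0 and 32.6 CPM, which overlapped the mutants. Against the mutants the log2 change was 0.45 for miR-199b-5p (95% interval -0.04 to 0.93, edgeR adjusted p = 0.484), 0.17 for miR-199a-3p (-0.33 to 0.68) and 0.57 for miR-143-3p (-0.46 to 1.60). There, 0 of 6 members and 0% of 998 miRNAs were called, with 0 members and 116 miRNAs at an unadjusted p under 0.05, and DESeq2 called 5 miRNAs and 0 members. All 3 libraries lay above all 3 for miR-199b-5p and miR-143-3p, as for 8.52% of all miRNAs.
Against WT, 0 of 6 members and 0% of miRNAs were called by edgeR, with 3 members and 130 miRNAs at an unadjusted p under 0.05, while DESeq2 called 25 miRNAs, 3 of them members. The log2 changes were -0.80 for miR-199b-5p (SE 0.23, edgeR adjusted p = 0.146), -0.90 for miR-199a-3p (SE 0.24, adjusted p = 0.0996) and -0.89 for miR-199b-3p (SE 0.27, adjusted p = 0.18). As 1 product miR-199-3p changed by -0.90 (SE 0.25, edgeR adjusted p = 0.123). Under all 3 names every library lay below WT, as for 10% of all miRNAs. The smallest adjusted p of any miRNA there was 0.051. Effects of the hairpin cassette and of PAPD5 loss cannot be told apart, since no group carries another hairpin.

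Ordered by mean, miR-199b-5p ran from WT (94.5 CPM) over shPAPD5 (54.5), mutants (39.9) and iUSB1 without Dox (37.9) to iUSB1 with Dox (32.7). The ranges of WT and shPAPD5, and of shPAPD5 and mutants, did not overlap, and the lower neighbours overlapped. miR-199-3p ran from WT (57.2 CPM) over shPAPD5 (30.8), iUSB1 without Dox (30.2) and mutants (28.2) to iUSB1 with Dox (23.8), and only WT and its neighbour did not overlap among the 4 adjacent pairs. For miR-143-3p, miR-145-5p and miR-199a-5p every adjacent pair overlapped.

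**Figure D2:**
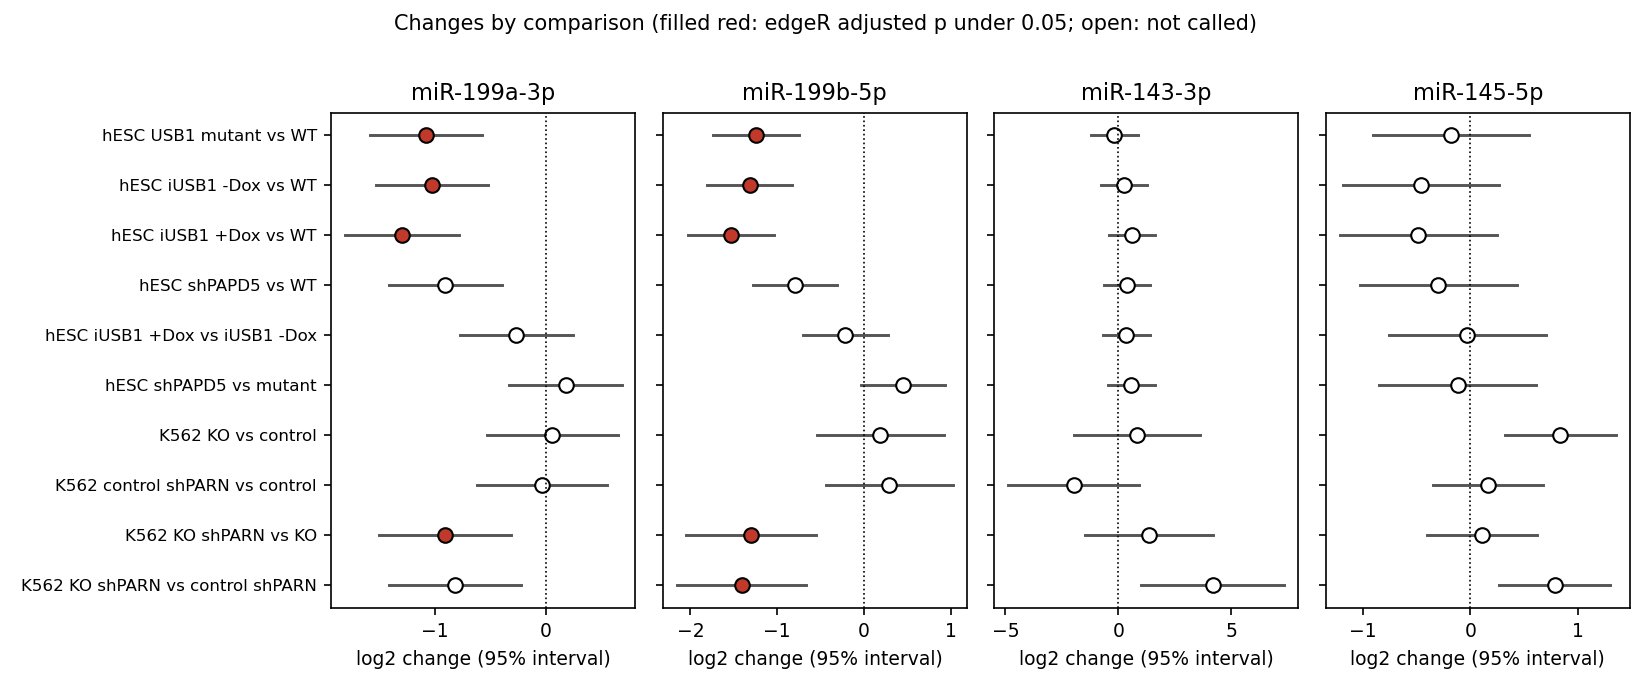
Log2 changes with 95% intervals from edgeR for 4 members, as columns, in 10 comparisons, as rows; filled points passed an adjusted p of 0.05, open points did not, and the scale differs between columns. miR-199a-3p and miR-199b-5p are filled in the 3 comparisons of mutant or iUSB1 cells with WT and in KO shPARN against KO, and miR-199b-5p also in KO shPARN against control shPARN, while miR-143-3p and miR-145-5p are open in the rows shown, which leave out KO shPARN against control.

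K562 addressed the same questions in a blood line. Members were present there too: in control cells miR-143-3p was at 1104 ± 264 CPM, miR-199b-5p at 236 ± 77.5, miR-199-3p at 135 ± 45.4, miR-145-5p at 93.7 ± 22.8 and miR-199a-5p at 6.06 ± 3.02. Blood miRNAs summed to 6233 to 9073 CPM in K562 and to 232 to 457 CPM in hESCs, each scaled within its line. In WT hESCs against K562 control, 5 of the 6 were lower and 1 was higher, where 70.4% of 894 miRNAs were called. The higher one was miR-155-5p (log2 change 9.66, SE 0.23, edgeR adjusted p = 1.82e-07). Control libraries a and b also held reads of the hESC cluster, with miR-302b-3p at 398 and 428 CPM against 0.0955 CPM in control library c. Of KO against control, 0 of 6 members were called, against 5.11% of 881 miRNAs, with 1 member at an unadjusted p under 0.05 and 1 called by DESeq2, miR-145-5p in each. miR-145-5p was at 85.6, 76.0 and 119 CPM in control libraries a, b and c and at 176, 166 and 160 CPM in KO libraries 1, 2 and 3. The groups did not overlap, as for 13.7% of all miRNAs in that direction, and the log2 change was 0.84 (SE 0.24, edgeR adjusted p = 0.0676). It passed under DESeq2 (adjusted p = 0.0482), with library totals (0.0273) and with these groups fitted alone (0.0266). Without control library c it passed as well (0.0487), but leaving out 1 library gave a call in only 1 of 6 cases (edgeR adjusted p up to 0.24). In all, 5 of 13 alternative values were called.

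miR-199b-5p and miR-199-3p, which fell in the hESC mutants, overlapped between KO and control. miR-199b-5p was at 164, 226 and 318 CPM in the control libraries and at 349, 316 and 139 CPM in KO libraries 1, 2 and 3 (log2 change 0.19, 95% interval -0.55 to 0.92). miR-199-3p was at 83.1, 164 and 159 CPM in control libraries a, b and c and 153, 159 and 104 CPM in the KO libraries (as 1 product 0.04, SE 0.26). The USB1 effect in hESCs minus that in K562 was -1.35 for miR-199b-5p (SE 0.50, edgeR adjusted p = 0.23) and -1.05 for miR-199a-3p (SE 0.45, adjusted p = 0.336). Thus 0 of 6 members were called for a difference in effect between the lines, against 3.14% of 892 miRNAs, with 2 members at an unadjusted p under 0.05 and 0 called by DESeq2. Without KO library 3, the shallowest, the difference of miR-199b-5p was -1.68 (edgeR adjusted p = 0.0427).

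PARN knockdown in control cells called 0 of 6 members, against 1.48% of 881 miRNAs, with 0 at an unadjusted p under 0.05 and 0 by DESeq2. miR-143-3p was nevertheless below all control libraries, at 365, 179 and 292 CPM against 1343, 821 and 1149 CPM (log2 change -1.99, SE 1.27, 95% interval -4.88 to 0.91, edgeR adjusted p = 0.592). All 3 libraries lay below all 3 for 11.4% of miRNAs. With these groups fitted alone, it was called (-1.99, edgeR adjusted p = 0.00847). The spread of the KO libraries does not enter that fit, and why the call was gained was not tested. miR-199a-5p also lay below in every library, at 1.61 to 3.92 against 4.05 to 9.53 CPM, without a call.

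PARN knockdown in KO cells went with lower miR-199-3p and miR-199b-5p. Against KO, 3 of 6 members fell and 0 rose, against 14.8% of 881 miRNAs called and 5.68% called lower. The median over all miRNAs was 0.11 here, so the changes stand slightly further below it.
miR-199b-5p was at 86.8, 145.3 and 94.3 CPM in the KO shPARN libraries, against 349, 316 and 139 CPM in KO. KO library 3 lay among the KO shPARN libraries. The log2 change was -1.30 (SE 0.34, edgeR adjusted p = 0.0291).
miR-199-3p was at 81.1, 83.1 and 60.3 CPM, below all KO libraries as for 12% of miRNAs, and fell by 0.90 as 1 product (SE 0.26, edgeR adjusted p = 0.0412). By name the changes were -0.91 and -0.88 (adjusted p = 0.0446 and 0.0442). These calls were close to the threshold: leaving out 1 library left 0 to 3 members called, 0 of them without KO library 1 or 2 or without KO shPARN library 1 or 3. Without KO library 3 and KO shPARN library 1 together, 3 members were called. In the same comparison 3 of 5 blood miRNAs tested fell, miR-144-3p, miR-223-3p and miR-451a, all known from blood cells, while the list summed to 6400 to 7041 CPM in KO and 6233 to 8684 CPM in KO shPARN. Of 8 fibroblast miRNAs tested, 1 rose, miR-21-5p (1.07, SE 0.21, edgeR adjusted p = 0.00595), and 0 of the muscle, endothelial or epithelial miRNAs were called. Their part in the miR-199 result was not tested.

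Compared with control shPARN cells, 1 of 6 members fell and 0 rose, against 9.19% of miRNAs called and 4.2% called lower. miR-199b-5p was at 252, 349 and 268 CPM in control shPARN, above all KO shPARN libraries as for 14.1% of miRNAs (log2 change -1.41, SE 0.34, edgeR adjusted p = 0.0237). miR-199a-3p and miR-199b-3p lay below in every library too (-0.82 and -0.89, adjusted p = 0.0837 and 0.052), and miR-145-5p above in every library, as for 16.5% of miRNAs (0.78, SE 0.24, adjusted p = 0.0528). As 1 product miR-199-3p changed by -0.85 (SE 0.26, edgeR adjusted p = 0.0559). Other settings called 0 to 4 members, with 3 under DESeq2 and 3 with a replicate block. Deviations from the group means correlated between same-numbered libraries of these groups (r = 0.34, 0.16 and 0.22). Without control shPARN library 2 or KO shPARN library 1, 0 were called. Of the other lists, miR-223-3p of the blood list fell by 1.02 and miR-218-5p of the fibroblast list rose by 1.15.
Compared with control cells, 2 of 6 members fell and 1 rose, against 14.1% of miRNAs called, 5.56% lower and 8.51% higher. miR-199b-5p fell by 1.12 (SE 0.34, edgeR adjusted p = 0.0471), miR-199b-3p fell by 0.86 (SE 0.27, adjusted p = 0.0467) and miR-145-5p rose by 0.95 (SE 0.24, adjusted p = 0.0196). Under its other name, miR-199a-3p, the 3p product was not called (log2 change -0.85, SE 0.27, edgeR adjusted p = 0.0529). As 1 product miR-199-3p changed by -0.86 (SE 0.26, edgeR adjusted p = 0.0448). miR-145-5p was at 252, 151 and 140 CPM in the KO shPARN libraries, so library 1 was the highest and all 3 lay above control, as for 18.5% of miRNAs. Without control library b or KO shPARN library 1, 0 members were called. Of 5 blood miRNAs tested, 2 fell, miR-144-3p (log2 change -1.42) and miR-223-3p (-1.30), and of 8 fibroblast miRNAs 3 rose, miR-21-5p by 0.91, miR-218-5p by 0.56 and miR-22-3p by 0.57. In both comparisons 0 muscle, endothelial or epithelial miRNAs were called, and the part of these lists in the results for members was not tested.
The test of whether PARN knockdown acted differently in KO and control cells called 0 of 6 members, against 1.82% of miRNAs, with 3 members at an unadjusted p under 0.05 and 0 called by DESeq2. For miR-199b-5p the interaction was -1.60 (SE 0.48, edgeR adjusted p = 0.12), for miR-199a-3p -0.87 (SE 0.39, adjusted p = 0.25) and for miR-199b-3p -0.92 (SE 0.37, adjusted p = 0.221). For miR-199-3p as 1 product it was -0.89 (SE 0.37, edgeR adjusted p = 0.23). Without KO library 3 the interaction of miR-199b-5p passed (edgeR adjusted p = 0.0257).

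**Figure D3:**
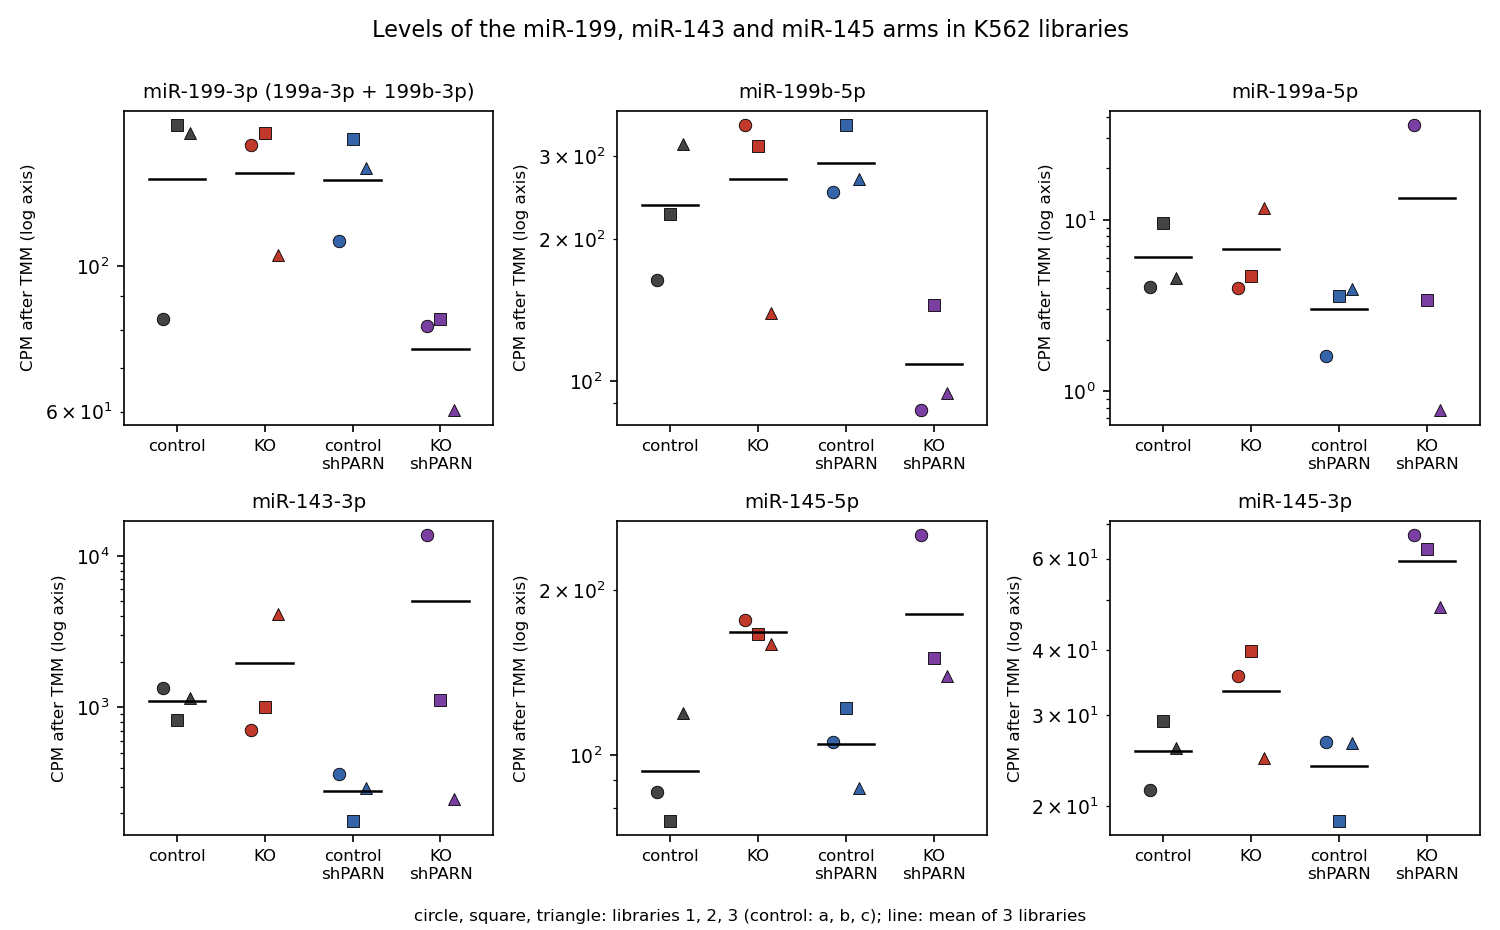
Levels of 6 arms in K562 libraries, in CPM after TMM scaling on log axes, by group; each point is 1 library, with shape for the library, and lines are means of 3. The KO shPARN libraries are the lowest group for miR-199b-5p by mean (109 CPM) and lie above all other groups for miR-145-3p (48.4 to 66.6 CPM), and KO shPARN library 1 stands at 13712 CPM for miR-143-3p.

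In K562 KO shPARN cells, the opposite arm of the miR-145 hairpin rose and miR-199b-5p fell. miR-145-3p was at 66.6, 62.8 and 48.4 CPM in the KO shPARN libraries, above 21.5 to 29.2 CPM in control, 24.8 to 39.9 CPM in KO and 18.8 to 26.6 CPM in control shPARN. Such separation held for 18.5% of 881 miRNAs against control, 17.4% against KO and 16.5% against control shPARN. It rose by 1.31 against control shPARN (SE 0.23, edgeR adjusted p = 0.0034), by 1.22 against control (SE 0.23, adjusted p = 0.00375) and by 0.81 against KO (SE 0.23, adjusted p = 0.0336). The calls against control shPARN and control held with each library left out in turn, and the one against KO in 1 of 6. Without KO library 3 and KO shPARN library 1 together, the change against KO was 0.52 (edgeR adjusted p = 0.234). Its interaction of 0.90 was not called (SE 0.32, edgeR adjusted p = 0.176). miR-145-5p exceeded miR-145-3p by 2.40 to 3.78 times in KO shPARN and by 4.16 to 6.398 times in KO, without overlap. The ratio was 2.60 to 4.61 in control and 3.28 to 6.47 in control shPARN, and both overlapped KO shPARN. Against KO, miR-145-3p was thus higher and the miR-199 arms were lower in the same KO shPARN libraries.

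In the K562 KO and KO shPARN groups, single libraries set the mean level of miR-143-3p. It was at 13712, 1126 and 249 CPM in KO shPARN libraries 1, 2 and 3, a 55.2-fold range within 1 group, and at 704, 1004 and 4143 CPM in the KO libraries. The log2 change of KO shPARN against control shPARN was 4.17 with an interval from 1.0 to 7.35 (edgeR adjusted p = 0.0986). It passed under DESeq2 (adjusted p = 0.0027) and with a filter of CPM 10 in 3 libraries (0.0465), and without KO shPARN library 1 it was 1.25 (adjusted p = 0.481). Against KO the change was 1.37 (-1.47 to 4.21), and without that library it was -1.61. That library also had the highest miR-199a-5p (35.8 CPM, against 0.773 to 11.7 in the other K562 libraries) and the highest miR-143-5p (9.12 CPM, against at most 2.91).
The level of miR-143-3p relative to its neighbour miR-145-5p varied between libraries. The ratio of miR-143-3p to miR-145-5p counts was 13.0 to 15.6 in WT hESCs and 10.1 to 17.6 in the mutants. It was 23.0 to 33.4 in iUSB1 with Dox and 18.7 to 26.2 in shPAPD5, and it was 10.9 to 55.5 in iUSB1 without Dox, which overlapped every other hESC group. In K562 it ran from 1.47 in a control shPARN library to 54.4 in KO shPARN library 1. Across libraries, Pearson's r of log2 CPM between miR-143-3p and miR-145-5p was 0.22 in the 15 hESC and 0.56 in the 12 K562 libraries. Between miR-145-5p and miR-145-3p it was 0.71 and 0.66, and between miR-199-3p and miR-199b-5p 0.84 and 0.90. Between miR-143-3p and miR-199a-5p it was 0.61 and 0.84, with miR-199a-5p at only 9 to 42 counts in the hESC libraries. The K562 value includes KO shPARN library 1, the highest for both, and was not computed without it. These values are descriptions over libraries that share groups and scaling.

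**Figure D4:**
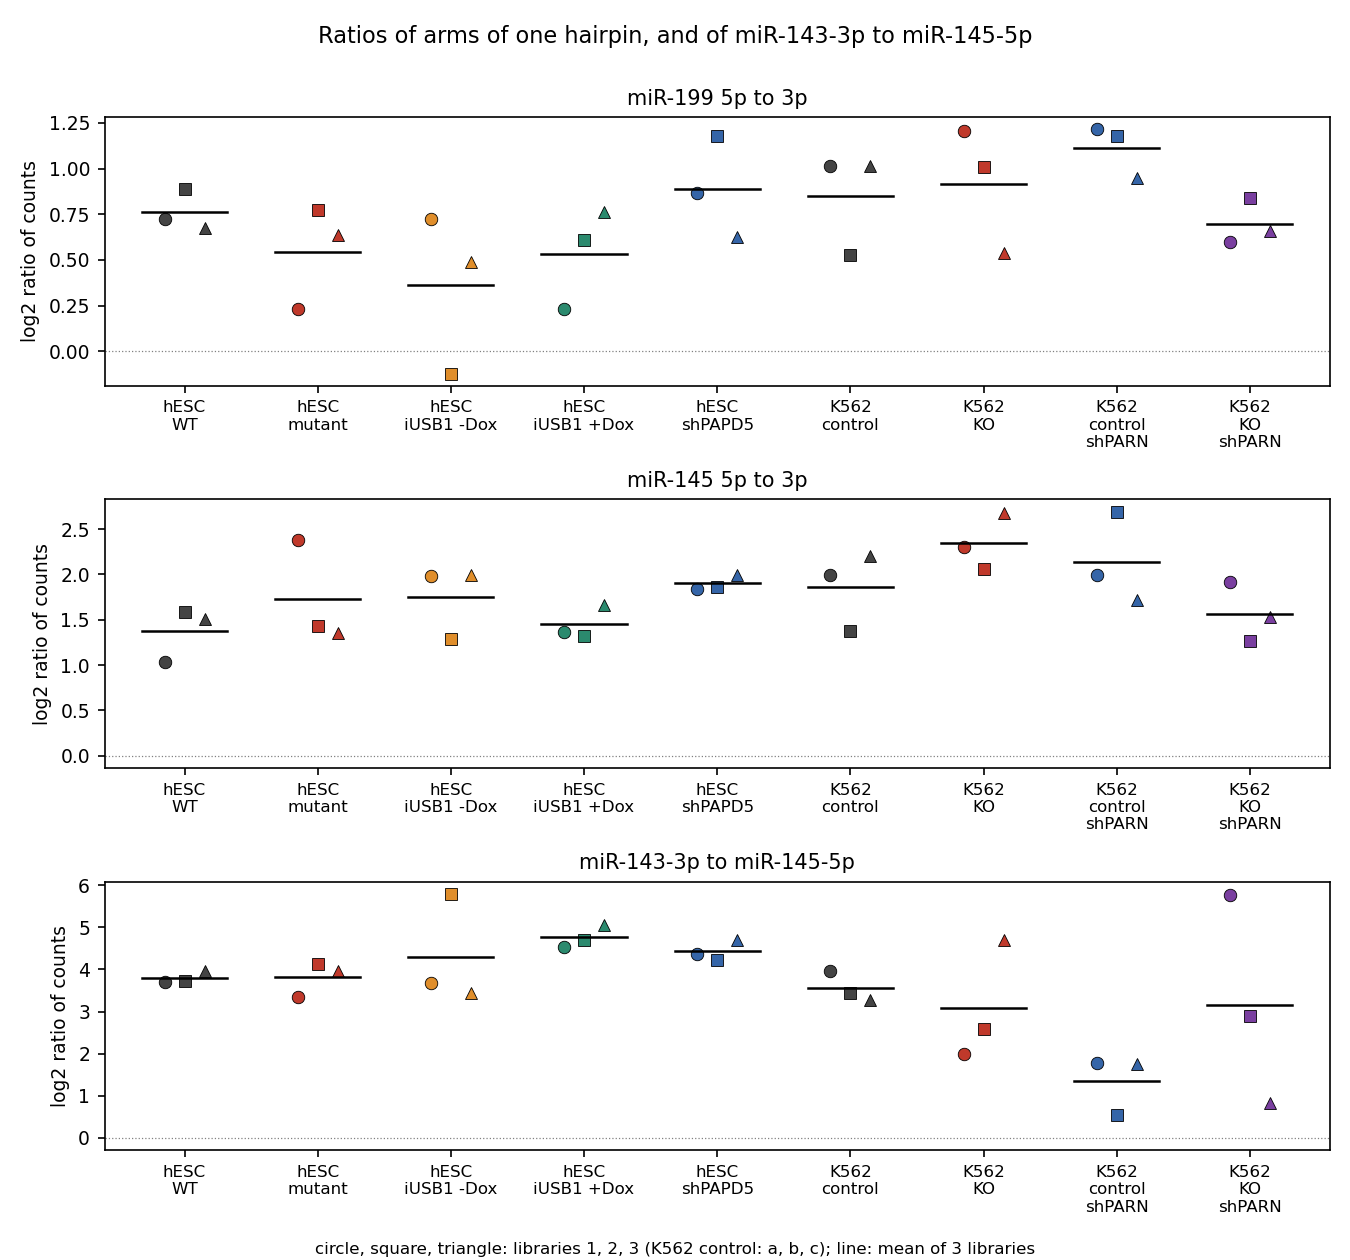
Log2 ratios of counts per library for miR-199 5p to 3p, miR-145 5p to 3p and miR-143-3p to miR-145-5p in the 9 groups; points are libraries and lines are means of 3. The first ratio stays between -0.12 and 1.21 in all 27 libraries, and the third spreads from 0.83 to 5.77 within KO shPARN alone.

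The miRNAs most like miR-143-3p over the 15 hESC libraries, of 992 compared, were miR-99a-5p (r = 0.80), miR-10a-5p (0.78), miR-122-5p (0.76), miR-122b-3p (0.75) and miR-6738-3p (0.64). miR-122-5p, the dominant miRNA of liver, was at 1.77 to 23.1 CPM in hESCs and 5.83 to 57.8 CPM in K562, except for 509 CPM in KO shPARN library 1. Over the 12 K562 libraries its r with miR-143-3p was 0.97, and 0.97 without that library. The closest companions in hESCs did not keep step with it in K562: r was 0.18 for miR-99a-5p and -0.65 for miR-10a-5p there, and -0.28 and -0.54 without that library. miR-10b-5p was at 239 CPM in that library and 22.4 to 101 CPM in the other K562 libraries. The part of RNA from another source in the miR-143-3p values was not tested. For miR-199-3p the most alike were miR-489-3p (0.91), miR-503-5p (0.91), miR-653-3p (0.90), miR-2682-5p (0.90) and miR-653-5p (0.90), with mean levels of 0.982 to 58.3 CPM.

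**Figure D5:**
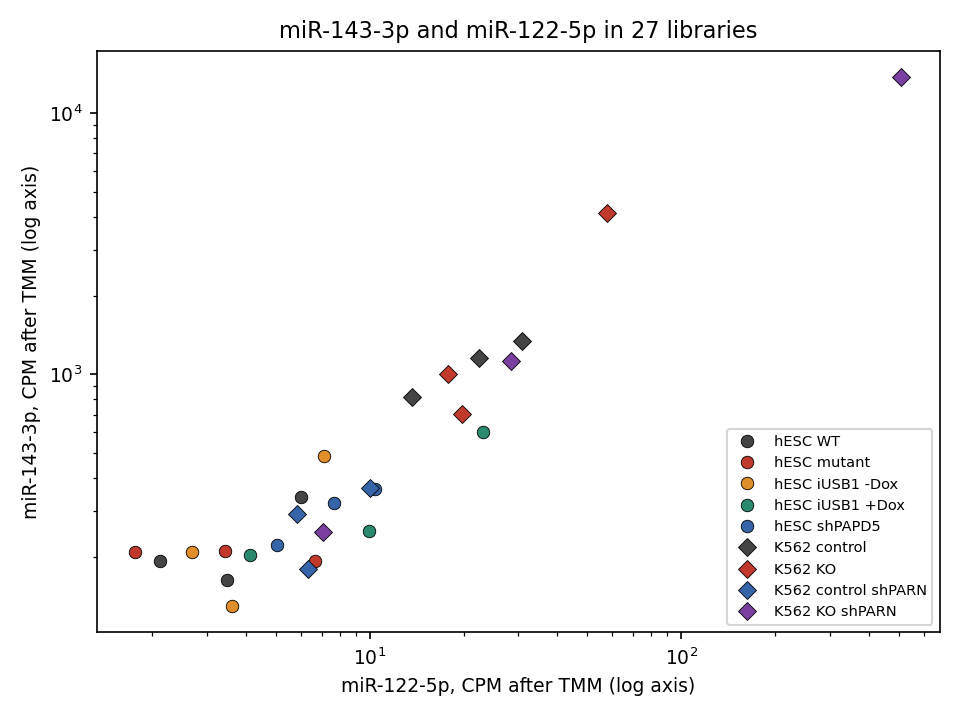
miR-143-3p against miR-122-5p in 27 libraries, both in CPM after TMM scaling on log axes, with circles for hESC and diamonds for K562 and colour for the group. The K562 points lie along a line that ends at KO shPARN library 1 (509 and 13712 CPM), and the spread within KO shPARN covers most of its length.

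Between the lines, WT hESCs and K562 control cells were set side by side in 1 fit. The cluster members miR-143-3p and miR-145-5p were lower in hESCs and the miR-199 arms were not called, so 2 of 6 members were lower and 0 higher, in a comparison where 70.4% of 894 miRNAs were called and 32.4% lower. The log2 change was -1.16 for miR-143-3p (SE 0.31, edgeR adjusted p = 0.0117), -1.37 for miR-145-5p (SE 0.36, adjusted p = 0.00975) and -0.22 for miR-199b-5p (SE 0.31, adjusted p = 0.539). These values hang on the scaling: with library totals the median over all miRNAs moved from 0.07 to -1.13 and all 6 members tested were called lower, miR-199b-5p by -1.39 (edgeR adjusted p = 0.00448), in a setting that called 700 of 894 miRNAs, 486 of them lower. Sums of the other lists are in CPM scaled within each line, so hESC and K562 sums do not share 1 scale. The epithelial miRNAs summed to 3929 to 8342 CPM in hESCs and 46.9 to 163 CPM in K562, the muscle miRNAs to 117 to 982 and 24.1 to 269 CPM, and the endothelial arms to 429 to 674 and 7675 to 30235 CPM. The fibroblast list summed to 19975 to 29591 CPM in hESCs and 107750 to 372440 CPM in K562. Of its 8 miRNAs tested, 5 were lower in WT hESCs than in K562 control, 1 was higher and 2 were not called.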

How the data were processed

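Small RNA was measured in 27 libraries, 15 of hESCs and 12 of K562. The authors trimmed reads with cutadapt 2.5, aligned them to miRBase with Bowtie2 2.2.9 and no mismatch in the seed, and used SAMtools 1.3.1 to count reads per mature arm. What was deposited are those counts, without normalization. Each table lists only miRNAs with a count in its first column, and only miRNAs present in all tables of a line were fitted (1251 in hESCs, 1080 in K562). K562 control columns carry no usable replicate number and are called a, b and c. 0 columns were left out. The paper's legends call the miRNA sequencing replicates biological for WT and mutant hESCs and for WT and USB1-KO K562 cells. The labels do not say whether replicates came from separate cultures. The p-values therefore measure the spread between libraries, which may be technical in the other groups.

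Members and lists were chosen with earlier results of these data known. The named miRNAs are the 7 members, their opposite arms, the 5 most alike by Pearson's r of log2 CPM for miR-199-3p and for miR-143-3p, and the abundant or called members of the hESC, blood, fibroblast, muscle, endothelial and epithelial lists; miR-10b-5p of the fibroblast list and individual values of libraries that stood apart were picked after they were seen. Adaptor entries (at most 0.206% of counts) were removed. filterByExpr (minimum count 10) left 998 miRNAs in hESCs and 881 in K562. edgeR 4.0.16 with TMM and robust quasi-likelihood was fitted to all groups of a line in R 4.3.3, calls were made at an adjusted p of 0.05, and the same code was tested on simulated counts. Arm ratios used counts with 0.5 added and exact permutation tests (scipy 1.17.1). Alternatives were library totals, other filters, DESeq2 1.42.0, a replicate block, summing miR-199a-3p with miR-199b-3p, fitting only the groups compared, and leaving out each library; leaving out KO library 3 and KO shPARN library 1 together was added after the data were seen. Host genes and their exons are from GENCODE release 44.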

Additional observations from a re-analysis of the deposited data

How the results depend on the processing

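Of the counts of members called, 167 of 205 alternative values were within 1.5 times of the reported count and 38 were not. Fitting only the groups compared gave 0 for USB1 mutants against WT and 0 for iUSB1 without Dox against WT. It gave 1 for KO against control, 1 for control shPARN against control and 1 for KO shPARN against control. Such fits have fewer libraries to estimate the spread. Library totals gave 1 for iUSB1 without Dox against WT, 1 for KO against control, 3 for KO shPARN against control shPARN and 6 for WT hESCs against K562 control. DESeq2 gave 3 for shPAPD5 against WT, 1 for KO against control and 3 for KO shPARN against control shPARN, where no filter gave 2 and a CPM of at least 10 in 3 libraries gave 4. Without KO library 3 and KO shPARN library 1 together, the counts were 1 for KO against control, 2 for KO shPARN against control shPARN, 1 for the interaction and 1 for the difference between lines, and miR-143-3p turned to -0.35 for KO against control, -0.37 for KO shPARN against KO and -0.72 for KO shPARN against control. The cause of these differences was not tested.

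With 1 library left out, the counts ranged from 1 to 3 for mutants against WT, 1 to 2 for iUSB1 without Dox against WT, 0 to 1 for KO against control, the interaction and the difference between lines, 0 to 3 for KO shPARN against KO and against control, and 0 to 2 for KO shPARN against control shPARN. miR-143-3p ranged from -0.37 to 0.18 for mutants against WT, -0.37 to 1.21 for KO against control, -1.61 to 2.55 for KO shPARN against KO and -0.74 to 2.77 for KO shPARN against control. For mutants against WT, miR-145-3p ranged from -0.95 to 0.041 and miR-145-5p from -0.48 to 0.25, and for KO against control miR-199b-5p ranged from -0.049 to 0.50. The arm ratio difference ranged from -0.48 to 1.84 for miR-214 and from -0.53 to 0.25 for miR-143. All of these values were not called. Of 689 alternative values of named miRNAs, 586 kept direction and side of the threshold, 60 lost a call, 32 gained one and 11 turned sign. Replicate numbers did not pair the samples throughout: same-numbered libraries of different groups correlated above 0.1 in 8 of 30 hESC and 5 of 9 K562 pairs. Same-numbered libraries of control shPARN and KO shPARN did correlate, with r of 0.34, 0.16 and 0.22. The other pairs of these 2 groups had r of -0.24 to 0.03. With a replicate block the counts changed by over 1.5 times only for KO shPARN against control shPARN, to 3. No paired analysis was possible because the control columns carry no number for comparisons with K562 control. In the reported comparisons miR-214-3p, at 0 to 18 counts a library, was not tested. It did not enter the hESC fits because it was not listed with Dox, and elsewhere it did not pass the filter on low counts.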
